A study of Homo sapiens with 4 samples.

Results

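The MYC, MAX, MXD and MondoA network was followed through 10 genes, each read by a single probe set whose annotated symbol is MYC, MYCN, MAX, MXD1, MXD3, MXD4, MXI1, MNT, MLX or MLXIP, out of 18417 genes with a probe set of their own. RNA came from 2 human cell lines, U266 and K562, each exposed to atovaquone or to vehicle and hybridised to 4 Affymetrix arrays in all. U266, a multiple myeloma line, received DMSO or 15 µM atovaquone for 2 h. K562, a chronic myeloid leukaemia line that carries the BCR-ABL1 fusion, was kept for 5 h with DMSO or with 20 µM atovaquone. All 4 groups shared their growth medium, RPMI-1640 plus serum. Atovaquone is a hydroxynaphthoquinone antimalarial that blocks respiratory complex III. Line, dose and time differ together between the U266 and K562 comparisons and cannot be told apart. Each group had 1 array, so there was no replicate, no test was run, and every ratio describes a pair of arrays.

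Proteins of this network carry a basic helix-loop-helix leucine zipper and bind E-box DNA as dimers. MYC and its relatives MYCN and MYCL pair with MAX and raise transcription of growth genes, whereas MXD1, MXD3, MXD4, MXI1 and MNT pair with the same MAX and recruit SIN3 corepressors. MLX is the dimer partner of MondoA, the product of MLXIP, which senses hexose phosphates and drives TXNIP, and MLX also pairs with some MXD proteins. In myeloma and in leukaemia with BCR-ABL1, MYC is a recurrent driver of proliferation.

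The start regions of these genes show which carry the E-box itself, since members can be targets of their own network. RefSeq windows (GRCh38.p14) of 300 bases, from 250 before to 50 after a start, were held for 9 of the 10 members in 12 windows. MYC had none, so the motif searches do not cover it. The E-box CACGTG, which reads the same on both strands, was in a window of 3 members, against 7.26% of all 35116 windows of this length. It began 50 bases before the start in MLX, 193 in MNT and 238 in MXD4. The 4 windows below are those of MXD1, the member with the highest ratio in both lines, of MAX and MLX, the 2 shared dimer partners, and of MNT, the lowest member in U266. They lie at chr2:69914859-69915158 on the plus strand, chr14:65102234-65102533 on the minus strand, chr17:42566850-42567149 on the plus strand and chr17:2401011-2401310 on the minus strand. Capitals mark the E-box, each sequence runs 5′ to 3′ on the gene's strand, and MAX is shown by the first of its 2 windows. Starts of MAX other than those of these 2 windows were not searched, so neither need be its main promoter.
MXD1: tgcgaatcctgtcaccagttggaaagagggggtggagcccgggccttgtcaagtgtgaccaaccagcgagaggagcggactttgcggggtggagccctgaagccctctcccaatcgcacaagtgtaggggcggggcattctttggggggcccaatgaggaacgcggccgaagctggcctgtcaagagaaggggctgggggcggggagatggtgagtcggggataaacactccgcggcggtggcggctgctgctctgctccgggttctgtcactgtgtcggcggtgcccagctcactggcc
MAX: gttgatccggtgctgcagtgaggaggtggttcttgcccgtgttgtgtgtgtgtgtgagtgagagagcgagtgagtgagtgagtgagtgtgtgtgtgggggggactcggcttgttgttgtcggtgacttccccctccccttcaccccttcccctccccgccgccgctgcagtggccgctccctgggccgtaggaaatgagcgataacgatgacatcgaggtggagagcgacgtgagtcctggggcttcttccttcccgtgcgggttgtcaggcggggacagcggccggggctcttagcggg
MLX: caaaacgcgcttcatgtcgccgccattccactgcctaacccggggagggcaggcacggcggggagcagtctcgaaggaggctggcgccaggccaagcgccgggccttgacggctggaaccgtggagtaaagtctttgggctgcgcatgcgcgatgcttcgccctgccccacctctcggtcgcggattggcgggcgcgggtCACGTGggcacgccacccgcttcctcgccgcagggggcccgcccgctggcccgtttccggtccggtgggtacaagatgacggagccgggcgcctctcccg
MNT: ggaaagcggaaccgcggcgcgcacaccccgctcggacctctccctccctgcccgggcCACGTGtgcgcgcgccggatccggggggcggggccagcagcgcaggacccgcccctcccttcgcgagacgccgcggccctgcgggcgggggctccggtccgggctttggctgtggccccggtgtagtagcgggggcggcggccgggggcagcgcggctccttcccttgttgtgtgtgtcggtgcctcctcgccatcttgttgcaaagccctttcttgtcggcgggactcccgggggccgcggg

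Other motifs were searched on both strands in the same windows. The cyclic AMP response element TGACGTCA, found in 1.85% of all windows, was in that of MLXIP, 57 bases before the start. The AP-1 motif TGANTCA, in 7.71% of all windows, was in that of MXD3. The STAT motif TTCNNNGAA, in 7.66% of all windows, was in none of the members' 12 windows, which says only that these letters are not there. For the MondoA branch the carbohydrate response element was searched as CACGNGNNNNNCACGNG, a pair of E-box-like sites 5 bases apart. It was in 0.0570% of all windows and in none of the members', but was in that of the MondoA target TXNIP at chr1:145996651-145996667 on the minus strand, 88 bases before the start. It was not in the second TXNIP window or in that of ARRDC4, another MondoA target. Capitals in its sequence mark these sites.
TXNIP: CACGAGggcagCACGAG

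Intensities were the deposited linear values, and a value below the 40th percentile of annotated probe sets on its array (its floor, an intensity of 305 to 331) was not taken as measured. Array medians ranged from 314 to 340. Rank correlation over all probe sets was 0.989 within U266 and 0.990 within K562. The labelled lines carried their own markers. On the vehicle arrays, U266 exceeded K562 by 2-fold or more for 6 of the 8 plasma cell markers measured on both, the exceptions being CD38 and TNFRSF13B, and 4 more passed the floor in U266 alone. Of 11 erythroid and megakaryocytic markers, 5 were at least 2-fold higher in K562 among 6 measured on both, and 5 more passed the floor in K562 alone. Among markers of other cells, KRT8, KRT18 and EPCAM of epithelium and LYZ of monocytes read 1975 to 3588 in K562 vehicle, while the epithelial cadherin gene CDH1 and the monocyte receptor gene CSF1R were under the floor on all 4 arrays and CD14 read 483 in K562 vehicle. In bulk RNA, fewer cells with a transcript and less of it per cell cannot be told apart.

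Before any drug, the lines differed in the levels of their MYC family genes, with MYC higher in K562 and MYCL higher in U266. MYC itself had an intensity of 385 in U266 vehicle and 6803 in K562 vehicle, which was 17.4-fold lower in U266 (log2 difference −4.12). Of 9483 genes measured on both vehicle arrays, only 2 had a lower U266 to K562 difference. U266 lay close to its floor here, at 1.16 times it, and K562 vehicle at 22.29 times its own. The erythroid marker genes HBZ and HBE1 read 370 and 357 on the same U266 vehicle array. Whether 385 is MYC signal there cannot be told, so the 17.4-fold size is uncertain. MYCL, which encodes L-MYC and is not among the 10 members, ran the other way, at 2891 in U266 vehicle and 581 in K562 vehicle, or 5.06-fold higher in U266 (log2 difference 2.34). MYCN, the neuronal family member, gave 291 with vehicle and 315 with atovaquone in U266, and 310 and 299 in K562. Only the K562 vehicle value passed its floor, so no ratio is given for MYCN.

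MAX and MLXIP joined MYC on the K562 side. MAX, the obligate partner of MYC, read 1212 in U266 vehicle and 2523 in K562 vehicle, a 2.05-fold difference. MLXIP read 673 and 1895, a 2.77-fold difference (log2 −1.47, just inside the central 95% of genes, which ran from −1.51 to 1.68). These 3 of 9 measured members were at least 2-fold lower in U266, against 6.97% of all genes measured on both vehicle arrays, and 0 members were at least 2-fold higher there, against 7.97%. After quantile normalisation the MAX difference was −0.98 in place of −1.03, under 2-fold, and 2 members were past it. The repressor genes lay close together in the 2 lines. MXD4 had the highest log2 difference of the members at 0.18 and MXI1 the lowest of the repressors at −0.27, with MXD1 at 0.10, MXD3 at −0.05 and MNT at −0.07. MLX, the MondoA partner, differed by −0.03. The vehicle exposures lasted 2 h in U266 and 5 h in K562, and line and time cannot be told apart.

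**Figure D1:**
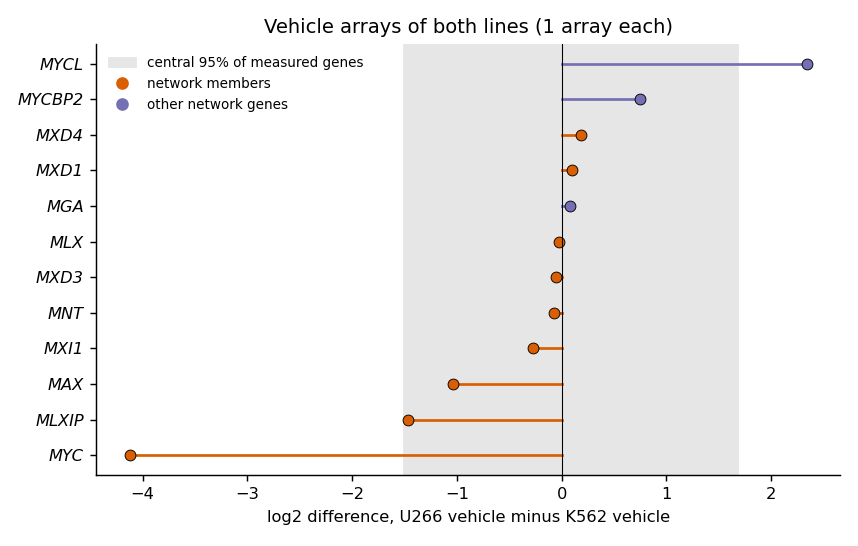
Log2 difference between the U266 and K562 vehicle arrays (x axis) for the 9 measured members (orange) and 3 further network genes (violet), with the central 95% of measured genes shaded. MYC lies far to the left at −4.12 and MYCL to the right at 2.34, while the MXD genes, MNT and MLX sit near 0.

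With atovaquone for 2 h, U266 cells had more transcript of MYC and of the repressor gene MXD1 and little difference in the rest of the network. MXD1, which encodes the MAX partner that replaces MYC as cells stop dividing, read 1081 in vehicle and 2133 with atovaquone, a 1.99-fold higher level (log2 ratio 0.99). Of 10731 genes measured on both U266 arrays it ranked 37 from the highest. MYC read 385 and 683, 1.79-fold higher with atovaquone (log2 ratio 0.84, rank 46). Its vehicle reading was 1.16 times the floor, so this fold size rests on a value that may hold little signal. Those were 2 of the 9 measured members at least 1.5-fold higher, against 0.857% of all measured genes, and 0 were at least 1.5-fold lower, against 0.0932%. MYC in treated U266 stayed far under its K562 readings of 6803 and 6856. When the floor was moved to the 60th percentile, MYC dropped under it on the U266 vehicle array, which left a lower bound of 0.03 and 1 member at least 1.5-fold higher in place of 2. ZFP36, whose product promotes decay of AU-rich mRNAs, MYC among them, was 2.42-fold higher on the same array (893 and 2143), and its part in the result was not tested.

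The other 7 measured members in U266 had log2 ratios between −0.15 and 0.13, all inside the central 95% of measured genes, −0.28 to 0.34. MAX read 1212 and 1260 (log2 ratio 0.07). The repressors showed no shared direction. MXI1 read 918 and 944 (0.05), MXD4 483 and 481 (0.0029), MXD3 924 and 897 (−0.03) and MNT, the widely expressed MYC antagonist, 712 and 636 (−0.15). MondoA and its partner were also near 0, with MLXIP at 673 and 733 (0.13) and MLX at 2341 and 2240 (−0.05). MXD1 was the single one of the 5 repressor genes among the members past 1.5-fold in U266.

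**Figure D2:**
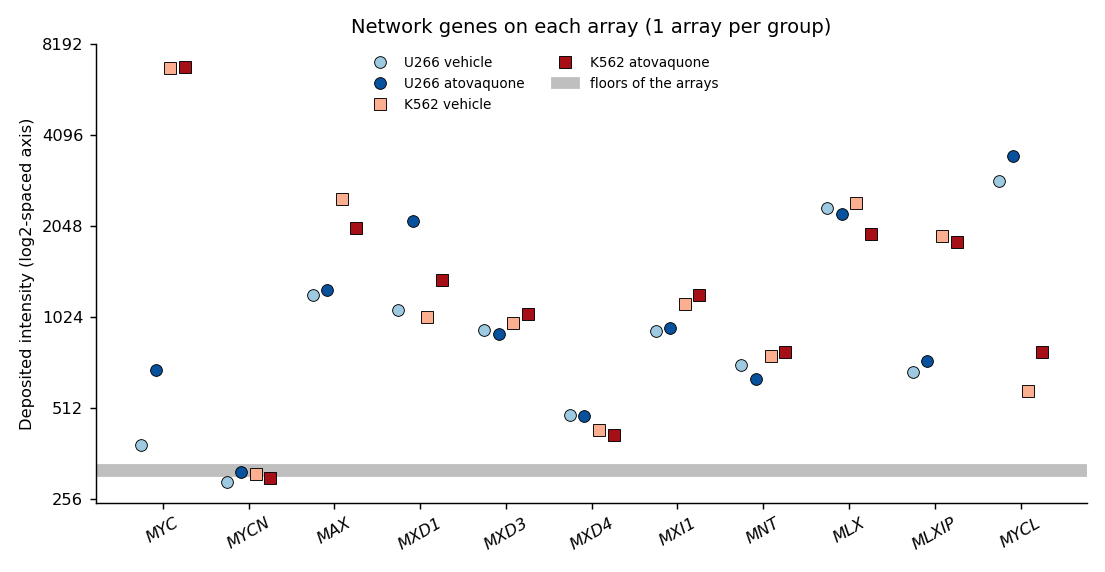
Deposited intensity (y axis, spaced by log2) of the 10 members and MYCL on each of the 4 arrays, 1 point per array, with the range of the array floors in grey; heights of different genes are not comparable, since each has its own probes. MYC is near the floor in U266 at 385 and near the top in K562 at 6803, and MXD1 stands higher with atovaquone in both lines.

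In K562 after 5 h of atovaquone no member passed 1.5-fold in either direction. That was 0 of 9 measured members, against 1.42% of all 10756 measured genes at least 1.5-fold higher and 0.697% at least 1.5-fold lower. MXD1 again had the highest ratio of the members, with 1025 in vehicle and 1359 with atovaquone, 1.33-fold higher (log2 ratio 0.41, percentile 96.2 of measured genes). The lowest were the 2 dimer partners. MLX read 2430 and 1927, 1.26-fold lower (log2 ratio −0.33, percentile 5.5), and MAX read 2523 and 2012, 1.25-fold lower (log2 ratio −0.32, percentile 5.8). All 3 lay inside the central 95% of genes, which in K562 ran from −0.42 to 0.48. MYC read 6803 and 6856 (0.02), the ratio nearest 0 of the 9 measured members in this line.

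Among the other K562 members, MXD3 read 974 and 1047 (log2 ratio 0.11) and MXI1 1130 and 1209 (0.10). MNT read 761 and 781 (0.04), MXD4 433 and 415 (−0.06) and MLXIP 1895 and 1807 (−0.06). The 5 repressor genes among the members thus had ratios from −0.06 to 0.41. None of these differences passed the fold used.

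Set side by side, the ratios of 5 of the 9 members had opposite signs in the 2 lines, against 46.5% of the 9222 genes measured on all 4 arrays. The U266 ratio exceeded the K562 ratio by 0.82 (log2) for MYC, at percentile 99.4 of those genes, by 0.58 for MXD1, at percentile 98.4, and by 0.39 for MAX, at percentile 94.8. For MNT it was lower by a log2 difference of −0.19. MYC read higher with the drug in U266, where its vehicle value was near the floor, and had a ratio near 0 in K562. Line, dose and time differ together, so a link between baseline and ratio was not tested. With 1 array per group, the difference between lines was not tested.

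**Figure D3:**
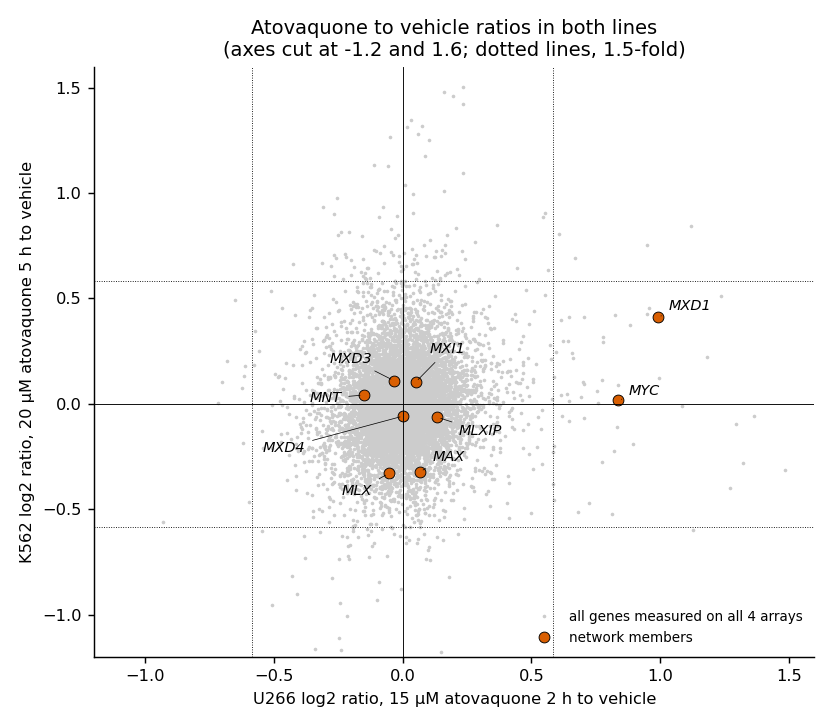
Log2 ratio of atovaquone to vehicle in U266 (x axis) and K562 (y axis) for genes measured on all 4 arrays (grey) and the 9 measured members (orange), with dotted lines at 1.5-fold and axes cut so that more extreme genes are not shown. MXD1 and MYC lie right of the 1.5-fold line for U266 at 0.99 and 0.84, and no member lies outside the lines for K562.

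The genes whose 4-array pattern was nearest to that of MYC were ranked by the root mean square difference in log2 intensity after each gene's mean was removed, over 9222 genes. They were IFITM1 at 0.288, JDP2 at 0.307, ACSM3 at 0.333, the embryonic globin gene HBE1 at 0.334 and TNFRSF13C at 0.344. All 5 were far higher in K562 than in U266, as with IFITM1 at 483 and 507 in U266 and 7688 and 7541 in K562 (vehicle first). For MXD4, MXI1 and MLXIP the nearest were NUDT21 at 0.006, H4C8 at 0.009 and NDUFAF4 at 0.030. A flat pattern has many near neighbours, and with 4 arrays the measure says little beyond the line difference.

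Further genes of the network were taken as a list of 5, of which 4 had a probe set of their own and 3 were measured. MYCL was higher with atovaquone in both lines, from 2891 to 3500 in U266 (log2 ratio 0.29, percentile 96.6) and from 581 to 784 in K562 (0.44, percentile 96.8), short of 1.5-fold in each. MGA, a MAX-binding repressor of germ cell genes, read 2122 and 2121 in U266 and 2050 and 1800 in K562. MYCBP2, a ubiquitin ligase that binds MYC, read 1481 and 1493 in U266 and 899 and 783 in K562. MLXIPL, which encodes ChREBP, the liver counterpart of MondoA, was under the floor on all 4 arrays at 234 to 284.

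Genes that work on the MYC protein or beside it showed small ratios. Of 16 measured MYC cofactors, 0 passed 1.5-fold in either line. Over all measured genes, 0.857% were at least 1.5-fold higher and 0.0932% lower in U266, and 1.42% and 0.697% in K562. With shares this low, 0 of 16 does not set the cofactors apart. Their medians were 0.0035 in U266 and −0.03 in K562, against −0.0001 and −0.0057 over all measured genes. In U266 the largest were PAF1, an elongation factor subunit, at 0.19 and ZBTB17, which encodes MIZ1, at −0.16. In K562 they were the acetyltransferase KAT5 at 0.25, the chromatin remodeller EP400 at −0.22 and KAT2A at 0.20, and KAT2A stood at 0.13 in U266. Of 9 SIN3 and NCOR corepressor subunits measured, through which MXD proteins and MNT act, 8 lay above 0 in U266 and 3 in K562, with medians of 0.08 and −0.14 and 0 past 1.5-fold. The scaffold SIN3A read 2135 and 2289 in U266 (0.11) and 1952 and 1542 in K562 (−0.34). SIN3B stood at 0.18, SUDS3 at 0.17 and ARID4B at 0.11 in U266, and BRMS1 at −0.19 and SAP30 at −0.16 in K562.

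Regulators of MYC stability and of the MYC gene included 2 genes past 1.5-fold in U266. Of 15 stability genes measured, 1 was at least 1.5-fold lower in U266 and 0 in K562, against 0.0932% and 0.697% of all genes, with medians of −0.02 and −0.15. It was SKP2, a ubiquitin ligase subunit that marks MYC for degradation and also acts as its cofactor, at 2530 and 1637. USP36, a nucleolar deubiquitinase that stabilises MYC, stood at 0.32 in U266 and −0.33 in K562, and USP28 at 0.19 in U266. The mitotic kinase PLK1 stood at −0.27 and the phosphatase subunit PPP2R5A at −0.22 in K562. Of regulators of the MYC gene and mRNA, 11 were measured in U266 with a median of 0.02 and 13 in K562 with a median of −0.06. ZFP36 was the 1 past 1.5-fold, upward in U266, which is 9.09% of the 11 against 0.857% of all genes. It stood at −0.40 in K562. IRF4, the plasma cell factor that drives MYC in myeloma, stood at 0.11 in U266, where PUF60 stood at −0.10, and in K562 the insulator factor CTCF stood at 0.20 and STAT5A at −0.20.

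Targets that MYC activates did not follow its own ratio in U266 beyond small values. Of 33 measured there, 22 lay above 0 with a median of 0.07, and 0 passed 1.5-fold in either direction, against 0.857% and 0.0932% of all genes. HSPD1 and HSPE1, the mitochondrial chaperonin pair that heat shock factor also drives, stood at 0.49 and 0.35, and CAD, the enzyme that starts pyrimidine synthesis, at −0.35. In K562, where MYC stood at 0.02, 14 of 34 lay above 0, against 48.8% of all genes, with a median of −0.03 against −0.0057. There 1 was at least 1.5-fold lower, 2.94% against 0.697% of all genes, the ribosome assembly gene NIP7 at 4041 and 2671. The assembly genes RRS1 at 1941 and 1368 and NOP16 at 1302 and 933 came next. Of the genes measured in both lines, 12 of 33 were above 0 in U266 and below 0 in K562, and 4 ran the opposite way, a share of opposite signs close to the 46.5% of all genes. On the vehicle arrays 24 of 33 were not higher in U266, against 4792 of 9483 genes. The median log2 difference was −0.26 against −0.0071 over all genes. At least 2-fold lower in U266 were 2 of the 33, or 6.06% against 6.97% of all genes. Those 2, named after their values were seen, were SLC2A1, a glucose transporter gene, at 7.35-fold and BOP1, a ribosome assembly gene, at 4.01-fold. EIF4E, the cap-binding initiation factor gene, was under the floor in U266 and at least 6.83-fold lower there.

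Genes that MYC represses had small ratios in both lines, and 0 passed 1.5-fold. Among all genes, 0.857% were at least 1.5-fold higher and 0.0932% lower in U266, and 1.42% and 0.697% in K562. In K562 all 8 measured lay above 0, from 0.01 to 0.22, with a median of 0.10, against 48.8% of all genes above 0 and a median of −0.0057. That count and median include CDKN2B, whose K562 value is not a measure of that gene, as set out below. CDKN1A and GADD45B read 378 and 383 in K562 vehicle, near that array's floor of 305. With a floor at the 60th percentile the K562 median was 0.05. In U266 6 of 8 lay above 0, with a median of 0.04, against 5361 of 10731 genes and −0.0001. CDKN1A, the p21 inhibitor of cell cycle kinases, read 1404 and 1216 in U266 (−0.20) and 378 and 439 in K562 (0.22). GADD45B, a stress sensor, stood at 0.25 in U266 and 0.16 in K562, CDKN1B, the p27 inhibitor, at 0.20 and 0.01, and NDRG1 at 0.14 in U266 alone, being under the floor in K562. CDKN1C stood at 0.04 and 0.09, GADD45G at 0.05 and 0.12 and NDRG2 at 0.01 and 0.05. GADD45A was measured in K562 alone, at 0.05. CDKN2B stood at −0.02 and 0.14. K562 is known for a deletion that removes CDKN2B, yet its probe set read 547 and 599 there, above the floor, so its K562 ratio is not a measure of that gene.

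The MondoA branch was read through its targets as well. In K562 6 were measured, with a median log2 ratio of −0.29. That median was 0.26 with a floor at the 60th percentile, which measures fewer of them, so it has no settled direction. Of the 6, 1 was at least 1.5-fold lower and 0 higher, against 0.697% and 1.42% of all genes. KLF10, a glucose-induced repressor, read 630 and 381, ARRDC4, an arrestin of glucose uptake, 674 and 516, the glycolytic regulator PFKFB3 663 and 511, and the hexokinase gene HK2 1645 and 1428. TXNIP, whose response element is printed above, ran the other way at 5624 and 6733 (0.26), and so did PKLR, the liver and red cell pyruvate kinase gene, at 971 and 1193 (0.30). In U266 3 were measured, TXNIP at 1660 and 1494 (−0.14), KLF10 at 1665 and 1583 (−0.06) and PKLR at 382 and 410 (0.11). PFKFB3 passed the floor in U266 with atovaquone alone, at 357, at least 1.09-fold higher. HK2 and ARRDC4 were under it on both U266 arrays. On the vehicle arrays MLXIP and most targets stood higher in K562, while MLX differed by −0.03. Of 3 targets measured on both, 2 were at least 2-fold lower in U266, against 6.97% of all genes. In the other direction 1 was at least 2-fold higher there, against 7.97%, and 3 more targets had only bounds. TXNIP was 3.33-fold, PKLR 2.5-fold, HK2 at least 4.89-fold, ARRDC4 at least 2.0-fold and PFKFB3 at least 1.97-fold higher in K562. KLF10 was the exception, at 2.69-fold higher in U266.

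**Figure D4:**
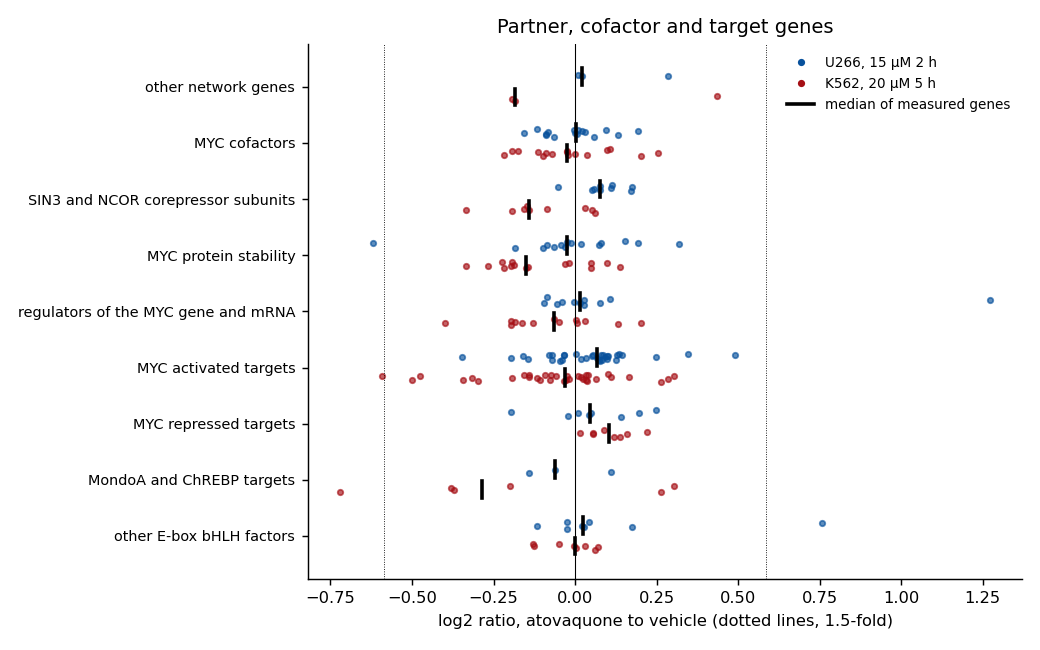
Log2 ratio of atovaquone to vehicle (x axis) of each measured gene in 9 lists of partners, cofactors, regulators and targets, with U266 in blue, K562 in red, black bars at list medians and dotted lines at 1.5-fold. Few genes pass the dotted lines. The median of the SIN3 and NCOR list is 0.08 in U266 and −0.14 in K562, with 0 of its 9 measured genes past 1.5-fold in either line. Over all measured genes, 0.857% are at least 1.5-fold higher and 0.0932% lower in U266, and 1.42% and 0.697% in K562.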

How the data were processed

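Total RNA of 4 samples, 1 per group, was hybridised as biotin-labelled cRNA, per the labels' protocols. The deposited values are the authors' processed probe set intensity on a linear scale; the software, background correction and normalisation behind them are not stated here, so any saturation or shared shift cannot be seen. Of 33252 probe sets, 19460 had 1 annotated symbol and 1754 had several; only the former were used. Where a gene had several, the brightest by mean log2 value stood for it. Values under each array's 40th percentile of annotated probe sets were raised to that floor. A gene under it on 1 array has only a bound. Log2 ratios were centred on their median over measured probe sets (−0.0096 for U266, −0.0048 for K562 and −0.03 between lines). The 1.5-fold (treatment) and 2-fold (lines) sizes replace a test, since the number of arrays limits precision. Members and lists were chosen with earlier results of these data known. All 10 members were named. So were all genes of lists under 10, and otherwise those past 1.5-fold and the 3 largest per line. The calculation (Python 3.11.15, pandas 2.3.3) was tested on simulated data. Floor, centring, quantile normalisation, pseudocount and probe set choice were varied.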

Additional observations from a re-analysis of the deposited data

How the results depend on the processing

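No paired analysis was possible because each group had 1 array. Of 408 values under 7 other settings (no floor, floors at the 20th and 60th percentile, no centring, quantile normalisation, 50 added before the log, mean of probe sets), 382 stayed within the SD of ratios over genes (or within 1.5 times for counts) and 0 called values changed sign. Every member has a single probe set, so the mean of probe sets could not change any member value. List medians were held to the SD over single genes, a loose bound for a median. With the floor at the 60th percentile 1 member was at least 1.5-fold higher in U266 in place of 2, because MYC lay under that floor on the vehicle array. The median of MondoA targets, which was not past any fold, turned its sign with the floor: it was −0.06 in U266 and 0.12 under a floor at the 20th percentile, and −0.29 in K562 and 0.26 at the 60th, where different numbers of genes are measured. MAX between vehicle arrays was −0.98 after quantile normalisation against −1.03, which left 2 members at least 2-fold lower in U266 in place of 3. Under the 60th percentile floor the MYC difference between vehicle arrays was an upper bound of −3.30. MYCN became measured with no floor, at 0.13 in U266 and −0.04 in K562. Counts over all genes moved most with the floor: genes at least 1.5-fold higher in U266 were 210 with none and 40 at the 60th percentile, against 92, and those lower were 106 and 4, against 10. In K562 they were 359 and 68 higher, against 153, and 190 and 44 lower, against 75. Between lines at least 2-fold higher in U266 they were 2350 and 303, against 756, and lower 1938 and 248, against 661. The lack of replicate arrays limits every value, and the spread between cultures is unknown.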

Other observations

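Other basic helix-loop-helix factors that bind E-boxes were read as a list of 9, of which 8 were measured; BHLHE40 and BHLHE41 among them lack the leucine zipper. With atovaquone 1 passed 1.5-fold in U266, upward, against 0.857% of all genes, and 0 did in K562, against 1.42%, and the medians were 0.02 and −0.0014. That was BHLHE40, a stress and clock repressor, at 1463 and 2458 in U266 and at 1959 and 1955 in K562. Its paralogue BHLHE41 read 2257 and 2528 in U266 (log2 ratio 0.17) and 428 and 391 in K562 (−0.13), and was 5.36-fold higher in U266 vehicle than in K562 vehicle. MITF, the melanocyte and mast cell factor, was 2.06-fold higher in K562 vehicle, at 710 against 338. The 338 in U266 vehicle lay near that array's floor of 331, so this fold size is uncertain. USF1 stood at −0.12 in U266 and −0.0045 in K562, USF2 at 0.04 and 0.06, TFE3 at −0.02 and −0.05, TFEB, the lysosomal regulator, at −0.02 and 0.03, and TFAP4 at 0.02 and −0.13. TFEC was under the floor on all 4 arrays.

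On the vehicle arrays, of 11 measured regulators of the MYC gene and mRNA, 1 was higher in U266 by 2-fold or more and 1 lower, or 9.09% each, near the 7.97% and 6.97% of all genes, and 2 more had only a bound. These 4 were named after their values were seen. IRF4 was 4.19-fold higher in U266. STAT5B was 5.41-fold higher in K562, STAT5A at least 9.66-fold and IGF2BP1, an RNA-binding protein that shields MYC mRNA, at least 13.5-fold.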
